A study of Mus musculus with 6 samples.

Results

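The 10 genes described here, Pi16, Dpt, Ly6a, Clec3b, Cd248, Thy1, Fap, Pdpn, Gsn and Serpinf1, are used as markers of fibroblasts of the vessel adventitia. They were taken by symbol from a table of 54532 genes, and each symbol matched 1 row. RNA had been sequenced from cultured primary mouse aortic endothelial cells (MAEC), untreated and grown in serum-containing medium with heparin, antibiotics and growth factors for endothelial cells. All 6 libraries carried the genotype label Oct4 KO, an endothelial-specific knockout of the pluripotency factor OCT4, and came from female (3 libraries) or male (3 libraries) mice. The driver of the knockout and the age of the mice are not given in the labels. Wild-type littermate cells were not analysed here, so the comparison available is female against male within the knockout genotype. Whether libraries of the same sex were grown or taken separately is not in the labels, so the p-values reflect variation among these libraries alone, and that variation may be technical. Sex, and any culture or preparation that differed along with it, cannot be told apart.

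The adventitia is the outer coat of an artery, a collagen-rich layer of fibroblasts, nerves and small vessels. Its fibroblasts include a population carrying Pi16, Dpt, Ly6a (Sca-1) and Cd34 that is found around vessels in most organs and can give rise to other fibroblasts. Several of the markers are shared: Thy1 is also carried by neurons and T cells, Pdpn by lymphatic endothelium and mesothelium, and Gsn by most cells that remodel actin. The markers fall into proteins of the cell surface (Ly6a, Thy1, Pdpn, Cd248 and Fap) and proteins that are wholly or partly secreted (Pi16, Dpt, Serpinf1, Gsn and Clec3b).

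Libraries held 19299742 to 23064738 counts. Levels are given as CPM, read counts scaled to an equal effective library size, or, to compare genes, as CPM per kilobase of gene length (RPKM). Errors are SD over the 3 libraries of a sex unless named SE. The table gave 0 counts for Pou5f1, the gene of OCT4, in all 6 libraries, which does not check the genotype label without wild-type cells. Xist and 4 Y-linked genes matched the sex label in every library. The label endothelial cell was checked against 20 pan-endothelial genes, of which 14 stayed under 1 CPM throughout. Pecam1 (CD31) averaged 0.722 ± 0.292 CPM in female cells and 1.57 ± 0.351 CPM in male ones. Cdh5 (VE-cadherin) had counts of 0, 4 and 0 in female and 2, 0 and 3 in male cells. The fibroblast markers were thus read in cultures in which defining endothelial genes were near 0. In bulk RNA, a smaller number of cells of a type and less RNA per cell cannot be told apart.

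Of the 10 markers, 9 passed the low-count filter, and 8 of these 9 were called different between female and male cells (edgeR quasi-likelihood test, Benjamini-Hochberg adjusted p under 0.05 over 14814 genes). Over all genes tested 60.7% were called. Female cells had more RNA of 6 markers, Pi16, Ly6a, Pdpn, Fap, Dpt and Thy1, and less of Gsn and Serpinf1, while Cd248 was not called and Clec3b was too low to test. The background for each direction was 30.9% of all genes tested for higher and 29.8% for lower. The median log2 fold change, female over male, was 0.99 over the 9 markers tested and -0.01 over all genes tested. Its median size without regard to sign was 0.99 against 0.53. The markers were chosen with earlier results of these data known. At least 2-fold calls were made for 4 of the 9 markers (Pi16, Ly6a, Pdpn and Fap) against 23.6% of all genes. With an offset for gene length and GC content Fap fell under 2-fold (log2 0.94) and Dpt came above it (log2 1.27). Female and male levels were fully apart for 8 of the 9 markers and for 67.1% of all genes.

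**Figure D1:**
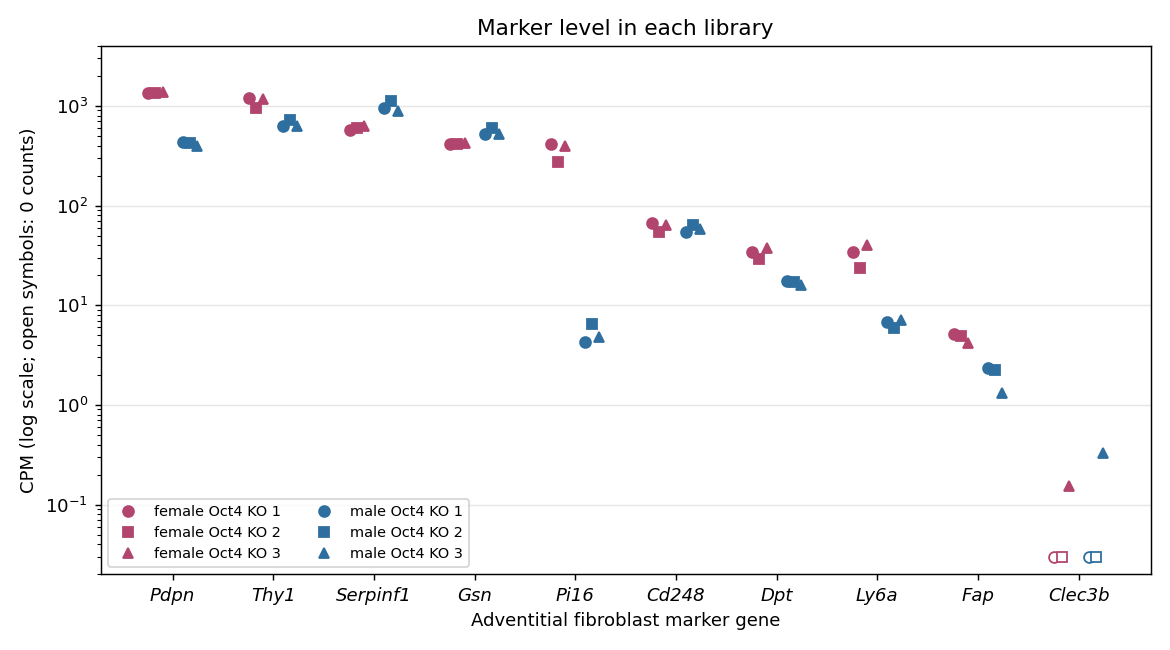
CPM (log axis) of each of the 10 markers in each of the 3 female and 3 male libraries, 1 symbol per library, with open symbols for 0 counts. Pi16 has the widest gap between the sexes, Cd248 overlaps, and Clec3b was read in 1 library of each sex.

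Pi16 (ENSMUSG00000024011, mm10 chr17:29318877-29329413), which encodes peptidase inhibitor 16, a protein of the cysteine-rich secretory family, had the largest fold change of the markers. It was at 412, 272 and 398 CPM in the female libraries and at 4.26, 6.55 and 4.85 CPM in the male libraries. The lowest female library was thus far above the highest male one. The log2 fold change was 6.12 ± 0.18 (SE, edgeR adjusted p = 2.089e-14), the 246th largest of 14814 in size. The mean level in female cells was 69.1 times that in male cells, where the gene still had 338 counts in all. Expressed per length, Pi16 stood at percentile 97.0 of the tested genes in female cells (90.4 ± 19.3 RPKM) and percentile 26.1 in male cells (1.31 ± 0.298 RPKM). The nearest tested gene after it, Mtch1, 2659 bases away, averaged 398 ± 14.3 CPM in female cells against 378 ± 11.7 CPM in male ones and was not called (adjusted p = 0.3823). The nearest before it, BC004004, was slightly lower in female cells (log2 -0.36 ± 0.11, adjusted p = 0.007252).

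Dpt (ENSMUSG00000026574, chr1:164796644-164824266) encodes dermatopontin, a small matrix protein that binds the proteoglycan decorin. Its levels were 34.3, 29.0 and 37.6 CPM in the female and 17.7, 17.2 and 16.1 CPM in the male libraries, with no overlap. The log2 fold change was 0.99 ± 0.12 (edgeR adjusted p = 2.669e-06), just under 2-fold. The annotated span of Dpt holds an antisense gene, Gm32569, which had 0 counts in all 6 libraries. The ratio of Pi16 to Dpt, which mark the same fibroblasts, differed between the sexes. Per length, Pi16 was 4.06 to 5.19 times Dpt in the female libraries and 0.104 to 0.165 times Dpt in the male libraries.

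Promoter sequence was available for 5 of the 10 markers (RefSeq, GRCm38.p6). It is shown for the marker that differed the most, for Pdpn, the most abundant marker of female cells per length, and for both markers that were lower in female cells. Each stretch is written 5′ to 3′ in the direction of the gene, ends before the gene's annotated span, and has capitals at matches to the TATA box, GC box or CCAAT box on either strand.
Pi16, chr17:29318632-29318876, plus strand: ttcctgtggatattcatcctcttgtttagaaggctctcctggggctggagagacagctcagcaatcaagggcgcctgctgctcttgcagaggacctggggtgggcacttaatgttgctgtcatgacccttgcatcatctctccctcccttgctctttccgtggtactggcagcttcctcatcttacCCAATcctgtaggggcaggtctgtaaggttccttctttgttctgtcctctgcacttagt
Pdpn, chr4:143299565-143299814, minus strand: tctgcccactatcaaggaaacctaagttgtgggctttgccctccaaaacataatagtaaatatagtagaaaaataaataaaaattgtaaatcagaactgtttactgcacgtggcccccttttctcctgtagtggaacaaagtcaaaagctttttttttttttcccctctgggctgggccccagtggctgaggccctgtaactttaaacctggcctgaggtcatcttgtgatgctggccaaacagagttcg
Gsn, chr2:35256109-35256358, plus strand: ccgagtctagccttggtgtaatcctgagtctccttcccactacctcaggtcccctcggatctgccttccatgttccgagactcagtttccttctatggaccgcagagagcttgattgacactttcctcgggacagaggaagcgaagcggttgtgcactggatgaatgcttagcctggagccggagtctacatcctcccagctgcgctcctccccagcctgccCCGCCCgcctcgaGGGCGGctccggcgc
Serpinf1, chr11:75422702-75422873, minus strand: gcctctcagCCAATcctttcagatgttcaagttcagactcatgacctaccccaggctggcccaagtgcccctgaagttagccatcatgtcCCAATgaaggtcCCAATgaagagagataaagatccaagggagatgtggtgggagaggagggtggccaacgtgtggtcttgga
The 250 bases before the RefSeq start were searched on both strands for the TATA box (TATAAA), the GC box (GGGCGG), the CCAAT box (CCAAT), the AP-1 motif (TGANTCA) and the interferon-stimulated response element, none of which contains another. Of 32851 promoters of that length, 12.4%, 32.7%, 33.8%, 6.75% and 2.98% held them. Pi16 had 1 CCAAT match, 64 bases before its start, Serpinf1 had 3, and Gsn had 2 GC box matches at the first of its 3 starts. Pdpn and Dpt had 0 matches to any of the 5. The printed Gsn stretch was 60.8% G and C, and that of Pdpn 43.2%. A match is a description of these letters only.

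Pdpn (ENSMUSG00000028583, chr4:143267431-143299564), the gene of podoplanin, a mucin-like membrane protein that binds the platelet receptor CLEC-2 and links to the actin cortex through ezrin and moesin, varied little within a sex. It was at 1347, 1343 and 1385 CPM in the female libraries and at 436, 425 and 393 CPM in the male libraries. The highest female library was 1.03 times the lowest, and all lay above the male libraries. The log2 fold change was 1.70 ± 0.08 (edgeR adjusted p = 5.149e-12), a mean level in female cells 3.25 times that in male cells. Clec1b, the gene of CLEC-2, was nearly unread, with 0 to 13 counts per library. Of the linker genes, Msn was higher in female cells (log2 0.70 ± 0.08, adjusted p = 6.03e-07) and Ezr lower (log2 -0.75 ± 0.09, adjusted p = 1.7e-06).

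Thy1 (ENSMUSG00000032011, chr9:44043384-44048579), which encodes the lipid-anchored glycoprotein CD90, was at 1213, 948 and 1177 CPM in the female and at 635, 716 and 633 CPM in the male libraries. The groups did not overlap, and female replicate 2 was the female library closest to the male range. The log2 fold change was 0.75 ± 0.09 (edgeR adjusted p = 2.773e-06). Genes of integrins that bind Thy1 divided. Itgav and Itgb3 were higher in female cells, at 243 ± 18.3 against 111 ± 8.08 CPM (log2 1.14) and 137 ± 11.3 against 49.9 ± 4.81 CPM (log2 1.45). Itgb5 was lower, at 243 ± 18.5 against 553 ± 30.5 CPM (log2 -1.19).

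Ly6a (ENSMUSG00000075602, chr15:74994877-74998031) encodes the lipid-anchored surface protein Sca-1, used to sort stem and stromal cells and known as an interferon-responsive gene. It was at 34.6, 23.6 and 40.7 CPM in the female libraries and at 6.77, 5.94 and 7.07 CPM in the male libraries. Every female library exceeded every male library by more than 3-fold, while the female libraries themselves spread 1.73-fold. The log2 fold change was 2.32 ± 0.18 (edgeR adjusted p = 8.468e-09). Ly6a lies in a cluster of related genes, and reads of near-identical members may be split among them, so its level is uncertain. Of its neighbours there, Ly6i, Ly6g and Ly6f had 0 counts in all 6 libraries, Ly6c2 had counts of 2, 0 and 2 in female and 0 in male cells, and Ly6c1 was at 1.17 ± 0.894 against 0.746 ± 0.472 CPM and was not called (adjusted p = 0.388). Ly6e was higher in female cells, at 278 ± 26.2 against 92.5 ± 20.3 CPM (log2 1.59 ± 0.12).

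Fap (ENSMUSG00000000392, chr2:62500943-62574075), the gene of fibroblast activation protein, a membrane-bound serine protease of the dipeptidyl peptidase family, was low in all libraries. Its counts were 107, 96 and 82 (female) and 49, 44 and 32 (male), or 4.74 ± 0.527 against 1.95 ± 0.553 CPM. The groups did not overlap, and the log2 fold change was 1.29 ± 0.29 (edgeR adjusted p = 0.001141). Its close relative Dpp4, the CD26 gene and itself a marker of adventitial progenitor fibroblasts, had counts of 1, 2 and 6 in female cells and 0 in every male library. The cytosolic relatives differed less: Dpp8 was at 136 ± 9.21 against 72.6 ± 8.96 CPM (log2 0.90, adjusted p = 4.011e-07) and Dpp9 at 89.3 ± 0.826 against 103 ± 3.64 CPM (log2 -0.21, adjusted p = 0.02847).

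Cd248 (ENSMUSG00000056481, chr19:5068078-5070637), the gene of endosialin, a C-type lectin-like surface protein of stromal cells, was the marker that was tested and not called. It was at 66.6, 54.8 and 64.5 CPM in the female and at 53.7, 63.9 and 58.5 CPM in the male libraries, and the ranges overlapped. The log2 fold change was 0.08 ± 0.10 (edgeR adjusted p = 0.5094). With an offset for gene length and GC content, it was called higher in female cells (log2 0.41 ± 0.08, adjusted p = 0.0002886), and with total counts as the only scaling the estimate was -0.038 (adjusted p = 0.7603). Thbd, the thrombomodulin gene of the same lectin family, was among the larger differences of the relatives, at 1389 ± 31.7 against 218 ± 16.9 CPM (log2 2.67 ± 0.08, adjusted p = 4.304e-14).

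The markers with less RNA in female cells were both abundant. Serpinf1 (ENSMUSG00000000753, chr11:75409769-75422701) encodes pigment epithelium-derived factor, a secreted serpin that inhibits angiogenesis. It was at 573, 601 and 626 CPM in the female libraries and at 959, 1109 and 897 CPM in the male libraries. All male libraries were above all female ones, with a log2 fold change of -0.72 ± 0.09 (edgeR adjusted p = 1.521e-06). Gsn (ENSMUSG00000026879, chr2:35256380-35307892) encodes gelsolin, which severs and caps actin filaments and has a secreted form that the counts per gene do not separate from the cytoplasmic one. It was at 418, 413 and 425 CPM in the female and at 523, 596 and 525 CPM in the male libraries, again without overlap between the sexes (log2 -0.39 ± 0.08, adjusted p = 0.0003274). An overlapping transcript on the same strand, Gm43128, had 10 to 28 counts per library. Both differences shrank with the length and GC offset, to -0.41 ± 0.07 (adjusted p = 0.0001105) for Serpinf1 and -0.17 ± 0.06 (adjusted p = 0.0336) for Gsn. Across the 10807 genes averaging 5 CPM or more, the fold changes followed gene length. For each library, log2 CPM was taken as its difference from the gene's mean over all libraries. The slope of that difference on log2 length ranged from 0.0711 to 0.185 for female and from -0.159 to -0.103 for male cells. These slopes are relative between libraries, and the centring makes them sum to 0. The cause of the trend with length was not tested.

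Relatives of Gsn and receptors for the Serpinf1 protein moved in both directions. Scin, the gelsolin-family gene of scinderin, was at 3.19 ± 0.378 against 61.0 ± 5.39 CPM (log2 -4.25 ± 0.14, adjusted p = 6.656e-14), while Capg, another capping protein of that family, was higher in female cells at 353 ± 20.4 against 271 ± 10.7 CPM (log2 0.38, adjusted p = 0.0003424). Of the genes for proposed receptors of pigment epithelium-derived factor, Plxdc2 was higher in female cells (512 ± 29.3 against 135 ± 13.4 CPM, log2 1.92, adjusted p = 7.388e-12), as were Plxdc1 (log2 0.86, adjusted p = 0.0001282) and Pnpla2 (53.2 ± 4.24 against 42.5 ± 0.824 CPM, log2 0.32, adjusted p = 0.00611). Lrp6 was not called (log2 -0.16, adjusted p = 0.1384), and Rpsa was lower (988 ± 40.6 against 2355 ± 338 CPM, log2 -1.25, adjusted p = 5.732e-09).

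Clec3b (ENSMUSG00000025784, chr9:123150946-123157432), which encodes tetranectin, a secreted plasminogen-binding lectin, was nearly unread. Counts were 0, 0 and 3 in female and 0, 0 and 8 in male cells. A count of 0 allows up to 3 counts, which is 0.123 to 0.154 CPM in these libraries. The 95% exact Poisson interval was 0.619 to 8.77 for the 3 female counts and 3.45 to 15.8 for the 8 male counts. It covers counting error only, and the main fit gives no fold. At this depth a difference was not detectable. Its ligand gene Plg had 0 counts in all 6 libraries. The plasminogen activator genes went opposite ways, with Plau at 112 ± 4.58 against 13.1 ± 1.75 CPM (log2 3.09 ± 0.11, adjusted p = 1.521e-13) and Plat at 132 ± 4.20 against 288 ± 13.9 CPM (log2 -1.13 ± 0.08, adjusted p = 1.455e-09).

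**Figure D2:**
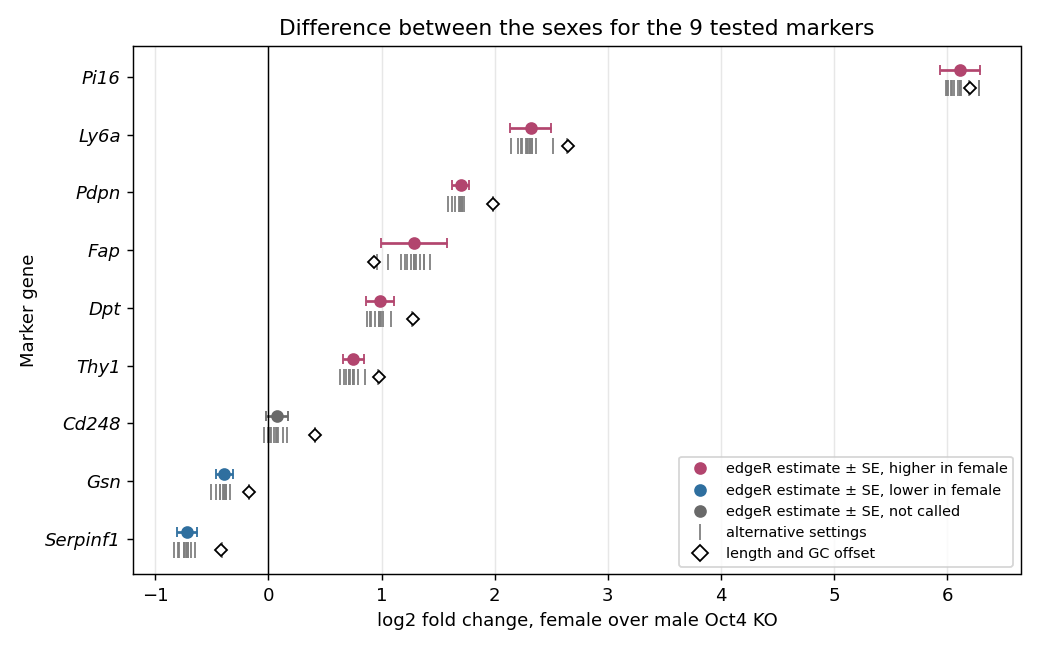
Log2 fold change, female over male, of the 9 tested markers as the edgeR estimate ± SE (circles), with the estimates under 15 alternative settings beneath each (ticks, and diamonds for the length and GC offset). Of the 9 markers, Cd248 alone has estimates on both sides of 0.

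The order of the markers per length differed between the sexes. In female cells it ran from Pdpn (748 ± 12.6 RPKM) through Thy1 (371 ± 48.0), Serpinf1 (254 ± 11.3), Gsn (133 ± 2.05) and Pi16 (90.4 ± 19.3) to Ly6a (27.4 ± 7.20), Cd248 (24.2 ± 2.46), Dpt (19.5 ± 2.53), Fap (0.837 ± 0.0930) and Clec3b. In female cells the ranges of Ly6a and Cd248 overlapped, as did those of Cd248 and Dpt, and the other neighbours in the order were apart. In male cells Serpinf1 came first (419 ± 46.3 RPKM), followed by Pdpn (230 ± 12.5), Thy1 (221 ± 15.8), Gsn (174 ± 13.2), Cd248 (22.9 ± 1.99), Dpt (9.84 ± 0.477), Ly6a (5.47 ± 0.483), Pi16 (1.31 ± 0.298), Fap (0.345 ± 0.0977) and Clec3b. There the ranges of Pdpn and Thy1 overlapped, as did those of Fap and Clec3b. The 4 most abundant markers, Pdpn, Thy1, Serpinf1 and Gsn, made up 89.5% to 91.9% (female) and 96.1% to 96.4% (male) of the summed RPKM of the markers. Within that sum Pdpn took 43.6% to 47.1% (female) and 19.9% to 22.6% (male), and Serpinf1 took 14.3% to 16.2% and 37.5% to 40.1%. The sum itself was 1668 ± 88.9 RPKM in female and 1084 ± 82.0 in male cells.

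**Figure D3:**
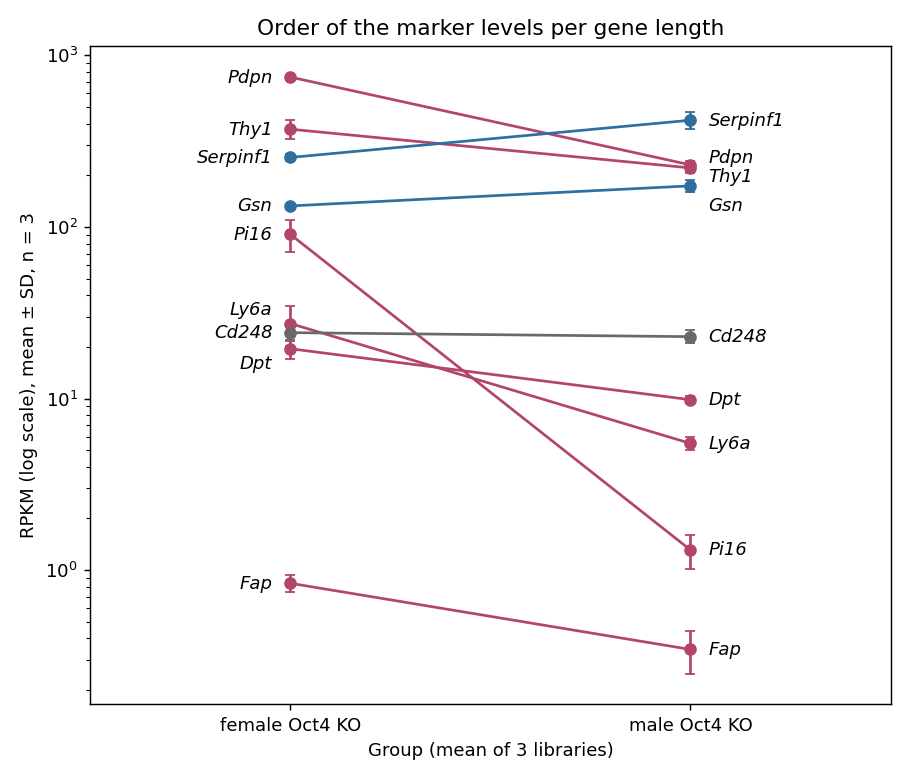
RPKM (log axis, mean ± SD, n = 3) of the 9 tested markers in female and male Oct4 KO cells, joined by a line per gene (red for higher in female cells, blue for lower, grey for not called). Lines cross where the order differs: Pi16 has rank 5 in female and rank 8 in male cells. Pdpn has rank 1 in female and rank 2 in male cells, and Serpinf1 has rank 3 in female and rank 1 in male cells.

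The female libraries differed among themselves. Female replicate 2 was the lowest female library for 7 of the 9 tested markers and the highest for 0, while 36.5% of 10807 genes averaging 5 CPM or more were lowest in it and 39.3% highest. In it Ly6a was at 62.7%, Pi16 at 67.2%, Thy1 at 79.3%, Dpt at 80.5% and Cd248 at 83.6% of the mean of the other female libraries, while Pdpn, Gsn and Serpinf1 were at 98.3%, 97.8% and 100.2% and Fap was at 105%. That library also had the steepest of the relative slopes on gene length (0.185). Its part in these values was not tested. Without it the log2 fold change of Pi16 was 6.29, of Ly6a 2.51, of Thy1 0.86 and of Dpt 1.09, and the same number of markers, 8, was called.

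The markers were set beside 30 other genes of adventitial and universal fibroblasts. Of these, 26 were tested: 11 were higher in female cells, 13 lower and 2 were not called. Over all genes tested, 30.9% were called higher and 29.8% lower. The median log2 fold change of the list was -0.17. A large difference was common in this list, with 16 of the 26 called at least 2-fold, against 23.6% of all genes, but in both directions. Igfbp6, a binding protein for insulin-like growth factors, had a fold change as large as that of Pi16, at 66.3 ± 8.85 against 0.665 ± 0.234 CPM (log2 6.61 ± 0.19, adjusted p = 2.125e-14). Ackr3, an atypical chemokine receptor gene, went the opposite way at 3.04 ± 0.737 against 88.2 ± 4.60 CPM (log2 -4.85 ± 0.14, adjusted p = 2.125e-14). Cd34, the sialomucin gene that marks these fibroblasts together with Pi16, was higher in female cells at 44.1 ± 5.44 against 11.9 ± 1.52 CPM (log2 1.89 ± 0.13, adjusted p = 1.864e-09). It was 1 of the 11 higher ones and was named after its value was seen. Among the 13 lower ones were Mfap5 (log2 -2.27), Col14a1 (log2 -2.18), Anxa3 (log2 -1.55), Cd55 (log2 -0.70) and Sema3c (log2 -0.66). Also lower in female cells than in male cells were the basement membrane collagen gene Col15a1, at 184 ± 4.69 against 1037 ± 25.8 CPM (log2 -2.49), and the globin gene Cygb, at 14.2 ± 1.88 against 124 ± 10.2 CPM (log2 -3.13).

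Of 20 general fibroblast genes, 19 were tested, 9 were higher in female cells, 9 lower and 1 was not called, with a median log2 fold change of 0.04 whether or not Tcf21, with 0 female counts, was set to its bound. The members with the smallest adjusted p were all higher in female cells: Col6a3 (log2 4.20), Lum (3.61), Dcn (3.85) and Mmp2 (2.52). Among the 9 lower ones, Fbln1 was at 70.8 ± 8.70 against 595 ± 45.3 CPM (log2 -3.07). Tcf21, also lower, was at 0 against 21.2 ± 0.862 CPM (log2 -7.14 at its bound). Of 29 binding partners and relatives of the markers, 25 were tested, 14 were higher, 7 lower and 4 not called. Their median log2 fold change was 0.41. Over all genes tested, 30.9% were called higher and 29.8% lower. Calls of at least 2-fold were made for 8 of the 19 general fibroblast genes and 11 of the 25 partners and relatives. The share over all genes was 23.6%. The markers' own median of 0.99 was above those of these lists, a difference that was not tested. Both the markers and the lists were chosen with earlier results of these data known.

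**Figure D4:**
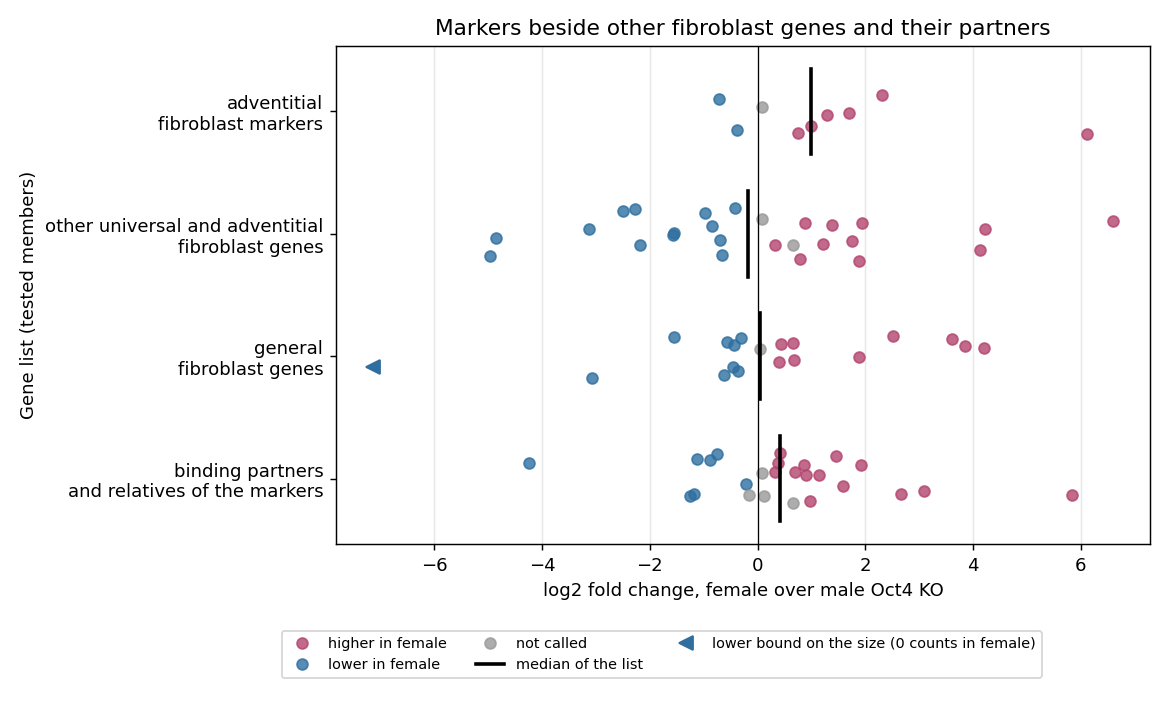
Log2 fold change, female over male, of each tested gene (points, spread vertically at random) in the markers and in 3 other gene lists, coloured by call, with a bar at each median. The medians are 0.99, -0.17, 0.04 and 0.41 from top to bottom, and the arrowhead is a gene with 0 female counts, drawn at its bound.

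Markers of other cell types that can carry Thy1 or Pdpn were mostly low. As a background for the calls, 30.9% of all genes tested were higher in female cells and 29.8% lower. Of 6 lymphatic endothelial genes, 5 stayed under 1 CPM, Ccl21a and Mmrn1 were at 0, and Prox1 had counts of 5, 15 and 14 (female) and 0, 0 and 2 (male). Flt4 was the member tested and was higher in female cells (log2 3.29 ± 0.24, edgeR adjusted p = 3.703e-09). The summed level of the list reached 11.6 CPM in female cells and 1.46 CPM in male ones, the direction of Pdpn at a far lower level. Of 9 mesothelial genes, Msln, Upk3b and Lrrn4 had 0 counts in all 6 libraries and 3 were tested (1 higher, 1 lower, 1 not called), with sums of up to 21.7 and 19.2 CPM. Bnc1 was the higher one (log2 3.02), Krt19 the lower one (log2 -3.04), and Krt18 was not called. Of 8 neuronal and Schwann cell genes, 3 were tested (1 higher, 2 lower), with sums of 69.3 to 76.8 and 37.5 to 45.4 CPM, of which Snap25 gave 57.9 ± 5.34 and 1.40 ± 0.888 CPM. Tubb3 was lower (log2 -1.38). Of 10 leukocyte genes, Ptprc, Adgre1, Cd3e and C1qa had 0 counts in all libraries and 4 were tested (2 higher, 1 lower, 1 not called), with sums of 69.7 to 86.0 and 77.2 to 93.8 CPM. Most of these sums came from Cd14, higher in female cells at 63.8 ± 10.2 against 26.4 ± 2.47 CPM, and Lyz2, lower at 9.88 ± 1.13 against 54.5 ± 6.03 CPM. Cd68 was higher (log2 1.25) and Csf1r was not called. The part of such cells in the marker levels was not tested.

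The endothelial, smooth muscle, pericyte and adipocyte lists had higher sums in male cells, as Serpinf1 and Gsn did. The called genes of the endothelial and pericyte lists went in both directions. Over all genes tested 30.9% were called higher in female cells and 29.8% lower. Of 20 pan-endothelial genes 6 were tested (1 higher in female cells, 4 lower, 1 not called), with sums of 149 to 175 (female) and 265 to 333 (male) CPM, most of it Eng at 92.1 ± 8.92 and 253 ± 31.9 CPM. Fli1, Plvap and Pecam1 were also lower, Pecam1 only just under the threshold (edgeR adjusted p = 0.04857). Flt1 was higher (log2 1.06). Kdr had counts of 6, 16 and 6 in female and 0 in male cells. Of 9 smooth muscle genes 5 were tested (0 higher, 4 lower, 1 not called), with sums of 62.4 to 67.3 and 159 to 174 CPM, and Myh11, the defining myosin gene, had 2 to 12 counts per library. The lower ones were Acta2 (log2 -2.65), Smtn (log2 -1.20), Lmod1 (log2 -3.78) and Myl9 (log2 -1.53). Of 8 pericyte genes 7 were tested (4 higher, 3 lower), with sums of 139 to 158 and 306 to 320 CPM. Most of the male sum was Rgs5, at 0.755 ± 0.455 against 256 ± 10.1 CPM, and most of the female sum was Cspg4, at 108 ± 12.6 against 3.18 ± 0.233 CPM. Ndufa4l2 was lower in female cells (log2 -1.95) and Kcnj8 higher (log2 3.81). Of 6 adipocyte genes 3 were tested (0 higher, 3 lower), with sums of 15.9 to 20.1 and 43.9 to 54.7 CPM, and Adipoq had 0 to 7 counts per library. The lower ones were Pparg (log2 -2.24), Fabp4 (log2 -1.52) and Lipe (log2 -0.56). The part of these cells in the levels of Serpinf1 and Gsn was not tested.

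Genes whose profile over the 6 libraries was most like a marker's were named by the smallest root mean square difference of centred log2 CPM among 10403 protein-coding genes. For Pi16 these were Adra2a (0.27), Smarca1 (0.30) and Gm2115 (0.34), so no other gene was as near to Pi16 as the nearest were to the other markers. For Ly6a they were Il11 (0.16), Arhgap45 (0.18) and Hpse (0.18), and for Fap Slc6a9 (0.11), Upp1 (0.13) and Fam213a (0.14). For Pdpn they were Matn4 (0.05), Scpep1 (0.05) and Klf11 (0.05), for Dpt Cebpa (0.04), Enox1 (0.07) and Usp46 (0.07), and for Thy1 Zdhhc1 (0.05), Dram1 (0.05) and Slc16a3 (0.06). For Gsn they were Slc48a1 (0.02), Lonp1 (0.02) and Mfge8 (0.03), for Serpinf1 Rps7 (0.03), Eif3d (0.03) and Lmf1 (0.03), and for Cd248 Col1a1 (0.04), Arhgap23 (0.04) and Bag3 (0.04). Such likeness over 2 groups of 3 libraries mostly repeats the difference between the sexes.

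The nearest tested genes beside the markers on the chromosome showed no common direction. Genes that were not tested were passed over, so a nearer gene may lie between. Beside Gsn, Stom was higher in female cells (log2 2.49 ± 0.08) and Rab14 was not called. Beside Serpinf1, Wdr81 was higher (log2 0.46 ± 0.08) and Smyd4 was not called. Beside Cd248, Tmem151a, 222 bases away, and Rin1 were both lower (log2 -1.55 ± 0.17 and -0.33 ± 0.10). Beside Fap, the RNA sensor gene Ifih1, 21723 bases away, was higher (log2 3.32 ± 0.20). Psmd14, 700567 bases from Fap on the other side, was lower (log2 -0.54 ± 0.08). Beside Pdpn, Gm13050 was lower (log2 -0.46 ± 0.12), and beside Thy1, Usp2 was higher (log2 0.54 ± 0.14).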

How the data were processed

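The submitters' processing notes name HISAT2 2.0.5, featureCounts 1.5 and the mm10 build. The authors deposited raw read counts per gene, not normalised, for 54532 genes in 6 libraries. No further sample columns (0) were present. Strand and multi-mapping settings: not given in the sources used here. Whether reads of antisense partners were separated is therefore not known. Columns were matched to samples by the library name in the labels. Gene lengths, in bases, are those deposited with the table, per the file headers.

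Female and male libraries (n = 3 each) were compared with edgeR 4.0.16 in R 4.3.3 (filterByExpr, TMM, glmQLFit, glmQLFTest, sex as the only term, two-sided, Benjamini-Hochberg over 14814 genes). SE is the size of the log2 fold change over the square root of F. CPM uses TMM-scaled library sizes. Alternatives used DESeq2 1.42.0, limma-voom (limma 3.58.1), other scalings, no filter, protein-coding genes only, a replicate block, each library left out, and an offset for length and GC (mgcv smooths on deposited lengths and GENCODE M21 transcript GC, present for all 10 markers). The fits were run on simulated counts in which few genes differed and no trend with length was set. That run therefore does not check the scaling or the calls on these data. Libraries of a sex differed beyond sampling noise (chi-square over its degrees of freedom was 7.42 to 16.0). The markers and gene lists were chosen with earlier results of these data known. All 10 markers are named, and from other lists up to 4 tested members of smallest adjusted p, defining markers of other cell types, and 3 most similar genes per marker. Other names, among them neighbouring genes and the partners and relatives set beside each marker, were chosen after their values were seen. A gene that this rule names is not reported here.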

Additional observations from a re-analysis of the deposited data

How the results depend on the processing

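Across 15 alternatives, 132 of 135 marker estimates kept their direction and their side of the threshold. The exceptions were all Cd248, at 0.41 with the length and GC offset, 0.41 with the replicate block with that offset, and -0.038 with total counts, a scaling that moved the median of all genes by -0.12. The number of markers called was 8 under every setting other than those with the offset, where it was 9. Leaving out each library in turn gave 8 to 8 markers and 8235 to 8841 genes called. The same-number libraries of the sexes did not deviate together (Pearson r -0.02, -0.10 and -0.15 over 10807 genes). Pairs of unlike number ranged from -0.06 to 0.17. No pairing by number was detected, but deviations centred within small groups could miss a weak one. With the replicate block 8525 genes and 8 markers were called, and no marker call changed. Lymphatic endothelial genes called numbered 2 without the low-count filter and 1 to 3 with a library left out (3 without male replicate 3, 2 without each other library except female replicate 2). Mesothelial genes called numbered 2 to 4 (4 of 4 tested without female replicate 2, against 2 of 3). Pan-endothelial genes called lower in female cells numbered 4 in the main fit. They numbered 3 with DESeq2, with the replicate block and with each library left out. The cause was not tested. Depth limits Clec3b: without the filter its log2 fold change was -1.07 ± 1.91 (edgeR adjusted p = 0.6814).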
